A study of Mus musculus with 9 samples.

Results

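A set of 10 genes that low oxygen switches on in many cell types, or that feed back on the hypoxia response, was followed across primary mouse pre-osteoblasts made to overexpress either hypoxia-inducible factor. The genes were Adm, Ankrd37, Car9, Car12, Cited1, Cited2, Ddit4, Ndrg1, Kdm3a and Mxi1, taken by symbol, 10 of the 40213 gene symbols in the count tables. The 9 libraries fell into 3 groups of 3. The Ad-Hif2a group came from pre-osteoblasts infected with an adenovirus carrying Hif2a (gene symbol Epas1), the Ad-Hif1a group from cells infected with an adenovirus carrying Hif1a, and the Ad-C group from cells that received the control adenovirus. In every group the cells were cultured from the calvaria of wild-type mouse pups aged 3 days, named as ICR in the study's reporting summary. They were kept under normoxia in osteogenic medium (β-Gp at 5 mM, L-AA at 50 μg/ml), infected on day 3 and harvested on day 6. Hypoxia itself was thus not part of the comparison, and the dose of virus used for sequencing was not given in the sources used here. The labels number the libraries of a group without saying whether they came from separate cultures, so the p-values measure the spread between these libraries.

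HIF-1α and HIF-2α are the oxygen-regulated subunits of a transcription factor that pairs with ARNT and binds the core sequence ACGTG or GCGTG. In normal oxygen, prolyl hydroxylases mark them for destruction by VHL, and at low oxygen they accumulate and recruit the coactivators CBP and p300. The genes followed here are textbook targets or regulators of that system. Cited1 and Cited2 belong to a family of small nuclear proteins without DNA-binding domain that bind CBP and p300, and Cited2 is known as a HIF target that competes with HIF-1α for these coactivators. Ddit4 (REDD1) restrains mTORC1, Car9 and Car12 are membrane carbonic anhydrases that act outside the cell in pH control, Adm encodes the secreted peptide adrenomedullin, and Ndrg1 is a stress-responsive gene. Kdm3a is a histone H3 lysine 9 demethylase, Mxi1 is a partner of MAX that opposes MYC, and Ankrd37 encodes a small ankyrin-repeat protein.

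Total counts per library were 14372589 to 17517897 in Ad-Hif2a, 16239634 to 17696512 in Ad-Hif1a and 17444224 to 18623403 in Ad-C. The overexpressed genes fitted the labels. Epas1 had 1996, 2181 and 823 TMM-scaled CPM (counts scaled to a common effective library size) in Ad-Hif2a, 407, 486 and 679 CPM in Ad-Hif1a and 47.1, 41.9 and 48.8 CPM in Ad-C. Hif1a had 575, 585 and 447 CPM in Ad-Hif2a, 1240, 1930 and 2325 CPM in Ad-Hif1a and 193, 190 and 186 CPM in Ad-C. Each factor was thus highest in its own group, and both were above Ad-C in all 6 libraries with a HIF vector (the HIF-vector libraries), with no separation of vector-borne from endogenous transcripts in these counts. Ad-Hif2a replicate 3 had the lowest Epas1 level of its group, and Ad-Hif1a replicate 1 the lowest Hif1a level of its group. These libraries also had the smallest shares of counts from the mitochondrial protein genes, 2.71% in Ad-Hif2a replicate 3 and 2.84% in Ad-Hif1a replicate 1, and no other library was below 3.56%. The part of the mitochondrial share in the results below was not tested, and fits without 1 of these libraries are given beside several values of the 10 genes.

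The cells carried osteoblast markers, and markers of other cell types were detected beside them. The 12 osteoblast markers, among them Col1a1, Sp7 and Bglap, summed to 52149 to 60943 CPM in Ad-Hif2a, 59597 to 61852 CPM in Ad-Hif1a and 67500 to 73063 CPM in Ad-C, and each had counts in every group. Of these, 6 fell in Ad-Hif2a and 4 fell in Ad-Hif1a, and 0 rose in either. Col1a1 was the largest part of the sum, with means of 31363 CPM in Ad-Hif2a, 34959 CPM in Ad-Hif1a and 40532 CPM in Ad-C. Spp1 and Ibsp went the other way without being called. Spp1 averaged 5516 CPM in Ad-Hif2a, 4619 CPM in Ad-Hif1a and 3583 CPM in Ad-C, and Ibsp 3.19, 2.78 and 1.94 CPM. The 12 macrophage markers summed to 1519 to 1799 CPM in Ad-Hif2a, 1475 to 1631 CPM in Ad-Hif1a and 3421 to 3664 CPM in Ad-C, and 7 of 12 fell in each comparison with Ad-C. The 12 skeletal muscle markers summed to 7.08 to 10.4 CPM in Ad-Hif2a, 11.7 to 14.6 CPM in Ad-Hif1a and 66.1 to 83.0 CPM in Ad-C. Of the 5 that could be tested, 3 fell and 1 rose in each comparison. Most of the Ad-C sum was Myh1, with means of 1.47 CPM in Ad-Hif2a, 2.39 CPM in Ad-Hif1a and 57.7 CPM in Ad-C. The gene that rose was Acta1 (4.01, 6.70 and 0.715 CPM in the same order), and Myod1 had 0 counts in every group. The 10 endothelial markers summed to 15.7 to 21.5 CPM in Ad-Hif2a, 17.4 to 18.8 CPM in Ad-Hif1a and 10.7 to 12.9 CPM in Ad-C. Of 4 tested, 3 rose and 1 fell in Ad-Hif2a and 1 rose in Ad-Hif1a. Erg was the largest part of this sum, with means of 11.3 CPM in Ad-Hif2a, 12.9 CPM in Ad-Hif1a and 5.35 CPM in Ad-C. Among these, 1 fallen muscle marker and 1 risen endothelial marker passed the filter on low counts only through the libraries where it was high. Beside these marker counts, 7.87% of all genes tested rose and 7.72% fell in Ad-Hif2a, and 6.04% rose and 5.22% fell in Ad-Hif1a. The 8 erythroid markers summed to at most 1.82 CPM in any library. In bulk RNA, fewer cells of a type and less RNA per cell cannot be told apart, and the part of these shifts in the levels below was not tested.

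The promoters of the genes that the results turn on are shown first, since both factors read the same short core. RefSeq promoters, 250 bases before to 50 after an annotated start site on build GRCm38.p6, were found for 9 of the 10 genes (all but Ndrg1). The first listed promoter of Cited1, Cited2, Ddit4 and Car12, the genes called in a comparison with Ad-C, is given with that of Adm, which was called in none. Capitals mark ACGTG or GCGTG on the strand shown, or CACGT or CACGC where the core lies on the other strand.
Cited1, chrX:102252132-102252431, minus strand: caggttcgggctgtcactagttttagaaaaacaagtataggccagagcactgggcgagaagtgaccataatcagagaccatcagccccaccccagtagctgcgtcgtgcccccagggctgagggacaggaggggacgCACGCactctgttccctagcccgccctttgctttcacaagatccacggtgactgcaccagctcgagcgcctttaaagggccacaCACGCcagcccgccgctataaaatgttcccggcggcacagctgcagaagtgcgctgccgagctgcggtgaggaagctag
Cited2, chr10:17722978-17723277, plus strand: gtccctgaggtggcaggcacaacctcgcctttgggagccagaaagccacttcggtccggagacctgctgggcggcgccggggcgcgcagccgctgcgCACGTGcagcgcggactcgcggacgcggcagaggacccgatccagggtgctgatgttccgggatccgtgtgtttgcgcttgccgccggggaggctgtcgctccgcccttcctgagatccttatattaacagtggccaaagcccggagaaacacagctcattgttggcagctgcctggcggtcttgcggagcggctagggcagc
Ddit4, chr10:59951721-59952020, minus strand: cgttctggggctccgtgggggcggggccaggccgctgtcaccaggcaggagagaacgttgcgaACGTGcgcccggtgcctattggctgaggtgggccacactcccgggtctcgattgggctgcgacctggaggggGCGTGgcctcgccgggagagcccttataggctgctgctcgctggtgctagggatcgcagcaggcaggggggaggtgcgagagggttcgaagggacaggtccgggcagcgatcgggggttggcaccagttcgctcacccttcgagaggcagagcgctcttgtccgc
Car12, chr9:66713436-66713735, plus strand: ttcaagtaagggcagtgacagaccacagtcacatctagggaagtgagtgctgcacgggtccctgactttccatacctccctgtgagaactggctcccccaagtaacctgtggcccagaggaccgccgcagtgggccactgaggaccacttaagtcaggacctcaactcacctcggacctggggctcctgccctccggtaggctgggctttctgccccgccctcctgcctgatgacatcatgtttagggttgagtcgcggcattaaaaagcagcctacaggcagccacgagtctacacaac
Adm, chr7:110627407-110627706, plus strand: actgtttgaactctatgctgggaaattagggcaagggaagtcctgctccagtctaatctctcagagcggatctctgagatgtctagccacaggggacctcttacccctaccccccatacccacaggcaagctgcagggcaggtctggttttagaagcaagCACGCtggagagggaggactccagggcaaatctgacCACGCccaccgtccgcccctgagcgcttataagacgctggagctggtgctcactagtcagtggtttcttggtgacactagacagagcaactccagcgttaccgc

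Cited1 held 2 cores, both GCGTG on the other strand, with their first base on the printed strand at -113 and -29 from the start site. Cited2 held 1 palindromic CACGTG, an E-box that is also read by MYC and MAX family proteins and that counts as ACGTG on both strands, at -153. A CACGTG was found in a promoter of 8.1% of all genes in the table. Ddit4 held ACGTG at -187 and GCGTG at -115, both on the printed strand. Car12 held no match in this window. Adm held GCGTG on the other strand at -90 and -54. A match was found in at least 1 promoter of 8 of the 9 genes, and 46.7% of the 27025 genes in the table had one. With the first base of the core changed (CCGTG or TCGTG), used as a comparison, 7 of the 9 genes and 41.9% of all genes had a match. The number of promoters of the set with a match was 10 of 15, as with the core itself. Over all promoters, the share was 38.8% with the changed base and 43.8% with the core. The share with the core differed with base composition. It was 34.8% at a GC content of 45 to 55%, 58.1% at 55 to 65% and 72.3% at 65 to 75%, the range that holds Cited2 at 66.7% and Ddit4 at 69.0%. With ACGTG alone, 6 of 9 genes and 21.8% of all genes had a match. These matches describe letters, not bound sites.

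**Figure D1:**
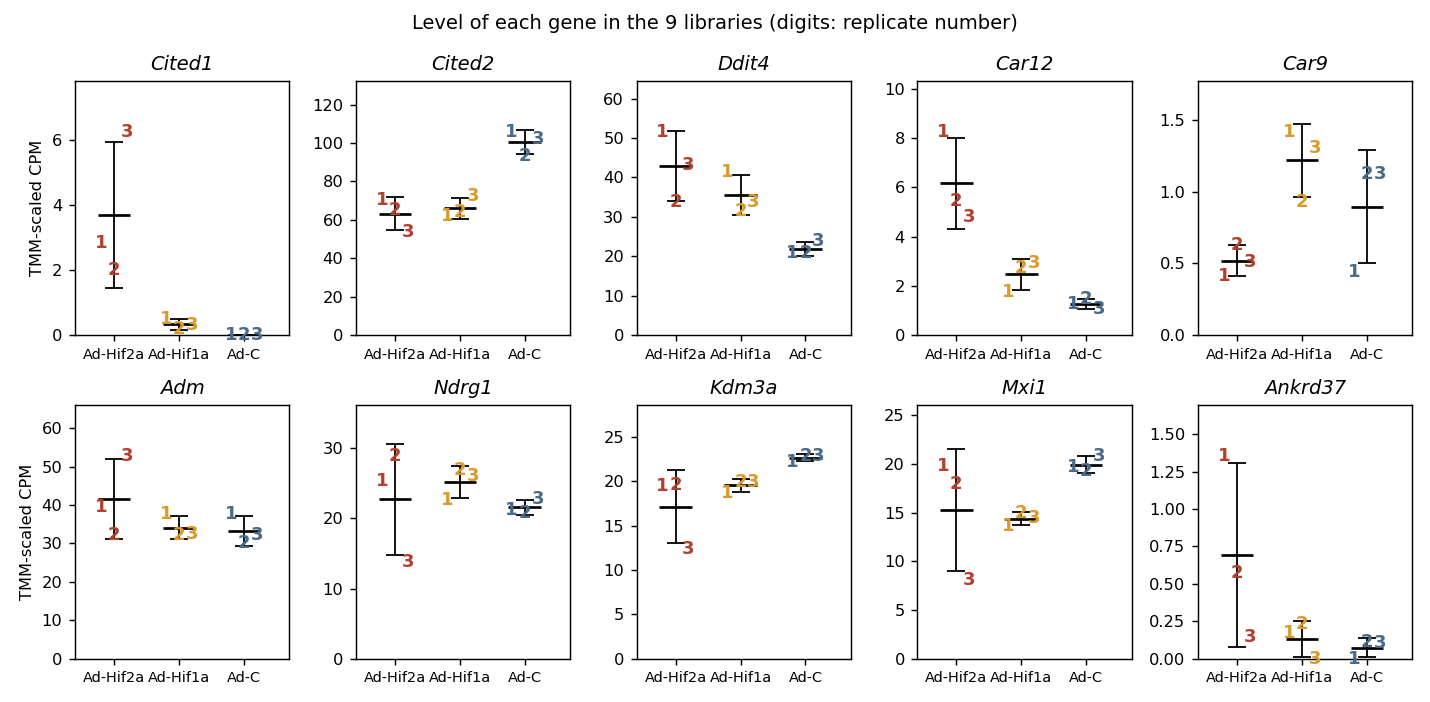
TMM-scaled CPM (linear axis from 0) of each of the 10 genes in the Ad-Hif2a, Ad-Hif1a and Ad-C libraries. Digits are replicate numbers, the long bar is the group mean and the whisker 1 SD over 3 libraries. Cited1 is at 0 in all Ad-C libraries, and Cited2 is lower in all 6 HIF-vector libraries than in any Ad-C library.

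Cited1 had no count in Ad-C and appeared in all 6 libraries with a HIF vector. It had 48, 35 and 86 counts in Ad-Hif2a (2.83, 2.00 and 6.26 CPM), 9, 3 and 5 counts in Ad-Hif1a (0.510, 0.174 and 0.311 CPM) and 0 counts in each Ad-C library. The groups did not overlap, and the Ad-Hif2a libraries were all above the Ad-Hif1a libraries. Against the 3 counts over the group that a count of 0 allows, 0.0549 CPM, the level was at least 63.9-fold higher in Ad-Hif2a and at least 6.08-fold higher in Ad-Hif1a. The edgeR adjusted p was 0.00357 for Ad-Hif2a and 0.0412 for Ad-Hif1a. Cited1 passed the filter on low counts only through the Ad-Hif2a libraries, so that its presence among the genes tested already required a difference. Against Ad-C, the Ad-Hif2a call was kept in all 17 alternative fits in which Cited1 could be tested. The Ad-Hif1a call was lost without Ad-C replicate 1 (adjusted p = 0.127), 2 (0.0825) or 3 (0.144), with either Ad-Hif1a replicate 1 (0.103) or 2 (0.138) removed, and with Ad-Hif2a replicate 1 (0.0542) or 2 (0.0852) removed.

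Cited2, with ample counts in control cells, was lower in cells with a HIF vector. It had 70.5, 65.2 and 53.7 CPM in Ad-Hif2a, 61.9, 64.2 and 72.3 CPM in Ad-Hif1a and 106, 93.4 and 102 CPM in Ad-C. All 6 HIF-vector libraries lay below the lowest Ad-C library, and the HIF-vector groups overlapped each other. The fall passed in Ad-Hif2a, with a log2 fold change of -0.67 (SE 0.16, adjusted p = 0.0317 by edgeR). In Ad-Hif1a the log2 fold change was -0.60 (SE 0.16), and the adjusted p of 0.0560 missed the threshold. These sit on either side of the threshold with nearly equal values, and the difference between them was -0.07 (Ad-Hif2a against Ad-Hif1a) with a 95% interval of -0.45 to 0.31. The Ad-Hif2a call was lost without Ad-C replicate 1 (adjusted p = 0.182), 2 (0.0954) or 3 (0.163), or with Ad-Hif1a replicate 2 (0.0832) or Ad-Hif2a replicate 1 (0.0760) or 2 (0.0604) removed. It was also lost with only the 6 libraries compared (0.0658). The Ad-Hif1a value passed without Ad-Hif1a replicate 3 (0.0399) or Ad-Hif2a replicate 3 (0.00191), without the replicate block (0.0154), in DESeq2 (0.0173), with upper-quartile factors (0.0475) and with only the 6 libraries compared (0.00630).

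Ddit4, the mTORC1 inhibitor, rose with both vectors. It had 51.5, 33.8 and 43.3 CPM in Ad-Hif2a, 41.4, 31.6 and 33.7 CPM in Ad-Hif1a and 20.9, 20.7 and 23.8 CPM in Ad-C. Every HIF-vector library was above every Ad-C library, while the Ad-Hif2a and Ad-Hif1a libraries overlapped. The log2 fold change was 0.95 in Ad-Hif2a (SE 0.17, edgeR adjusted p = 0.0103) and 0.69 in Ad-Hif1a (SE 0.17, adjusted p = 0.0408). The Ad-Hif2a call was lost without Ad-C replicate 1 (adjusted p = 0.0920) or 3 (0.0588) and without Ad-Hif2a replicate 1 (0.0540). The Ad-Hif1a call was lost without Ad-C replicate 1 (0.268), 2 (0.122) or 3 (0.151), with Ad-Hif1a replicate 1 (0.161) or 2 (0.223) removed, with Ad-Hif2a replicate 1 (0.0590) or 2 (0.0562) removed, and with no filter on low counts (0.0569).

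Of the 2 membrane carbonic anhydrases, Car12 alone passed, in Ad-Hif2a. Car12 had 140, 95 and 66 counts in Ad-Hif2a (8.26, 5.43 and 4.81 CPM), 31, 47 and 47 counts in Ad-Hif1a (1.76, 2.73 and 2.92 CPM) and 23, 26 and 20 counts in Ad-C (1.27, 1.46 and 1.07 CPM). The groups stood in 3 separate steps with no overlap. Car12 rose in Ad-Hif2a by 2.28 on the log2 scale (SE 0.34, edgeR adjusted p = 0.00544), a call lost only without Ad-C replicate 1 (adjusted p = 0.0509). In Ad-Hif1a the log2 fold change was 0.97 (SE 0.35) and the adjusted p 0.128, which passed without Ad-Hif2a replicate 3 (0.0351) and with only the 6 libraries compared (0.0397). Car9, a gene often used as a marker of hypoxia in tumours, was scarce in every library, with 7, 11 and 7 counts in Ad-Hif2a, 25, 16 and 21 counts in Ad-Hif1a and 8, 20 and 21 counts in Ad-C. The Ad-C libraries overlapped both HIF-vector groups. Neither comparison with Ad-C passed, with log2 fold changes of -0.75 in Ad-Hif2a (SE 0.48, adjusted p = 0.287) and 0.50 in Ad-Hif1a (SE 0.44, adjusted p = 0.495). Without Ad-Hif1a replicate 1, the Ad-Hif1a value was 0.092. Of the exonic bases of Car9 in GENCODE M21, 9.3% lie opposite an antisense gene, and the strand setting of the counting was not given in the sources used here.

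Adm, the vasodilator peptide gene, showed no change that passed. It had 39.5, 32.3 and 52.9 CPM in Ad-Hif2a, 37.6, 32.2 and 32.5 CPM in Ad-Hif1a and 37.7, 30.1 and 32.2 CPM in Ad-C, and the groups overlapped, with Ad-Hif2a replicate 3 the highest library. The 95% interval of the log2 fold change was -0.13 to 0.74 in Ad-Hif2a and -0.40 to 0.47 in Ad-Hif1a. Without Ad-Hif2a replicate 3, the Ad-Hif2a log2 fold change of 0.31 was 0.077. Ndrg1 had 25.4, 28.9 and 13.8 CPM in Ad-Hif2a, 22.6, 26.8 and 26.0 CPM in Ad-Hif1a and 21.2, 20.7 and 22.7 CPM in Ad-C. Its Ad-Hif2a libraries lay on both sides of Ad-C, and the 95% intervals were -0.57 to 0.64 in Ad-Hif2a and -0.38 to 0.82 in Ad-Hif1a. The Ad-Hif2a log2 fold change was 0.04, and 0.36 without replicate 3. Of its exonic bases, 6.4% lie opposite the antisense gene Gm17035 in GENCODE M21.

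Neither the chromatin regulator Kdm3a nor the MYC-network regulator Mxi1 passed in a comparison with Ad-C, and their Ad-Hif2a values were nearer to 0 without replicate 3. Kdm3a had 19.4, 19.6 and 12.4 CPM in Ad-Hif2a, 18.7, 19.9 and 19.9 CPM in Ad-Hif1a and 22.2, 22.8 and 22.9 CPM in Ad-C, with every HIF-vector library below every Ad-C library. The log2 fold change was -0.42 in Ad-Hif2a (SE 0.19, edgeR adjusted p = 0.175) and -0.21 in Ad-Hif1a (SE 0.19, adjusted p = 0.509). Without Ad-Hif2a replicate 3 the Ad-Hif2a value was -0.20. Mxi1 had 19.8, 17.9 and 8.08 CPM in Ad-Hif2a, 13.7, 14.9 and 14.5 CPM in Ad-Hif1a and 19.7, 19.2 and 20.9 CPM in Ad-C. The Ad-Hif1a libraries were all below Ad-C, whereas 1 Ad-Hif2a library fell within the Ad-C range. The log2 fold change of Mxi1 was -0.44 in Ad-Hif2a (SE 0.29, adjusted p = 0.312) and -0.48 in Ad-Hif1a (SE 0.29, adjusted p = 0.338), while the Ad-Hif2a value was -0.064 once replicate 3 of that group was left out. The Ad-Hif1a value passed without Ad-Hif2a replicate 3 (0.0170) and with only the 6 libraries compared (0.0328).

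Ankrd37 was too scarce to pass the filter and was not tested. It had 23, 10 and 2 counts in Ad-Hif2a, 3, 4 and 0 counts in Ad-Hif1a and 0, 2 and 2 counts in Ad-C. The excess in Ad-Hif2a lay in replicates 1 and 2. Over the group, the ratio of Ad-Hif2a to Ad-C was 9.92 with a 95% exact counting interval of 3.55 to 38.4, and that of Ad-Hif1a to Ad-C was 1.88 with an interval of 0.477 to 8.75. These intervals cover counting error only. Fitted without the filter, Ad-Hif2a against Ad-C gave an edgeR adjusted p of 0.168. Of its exonic bases, 22.7% lie opposite Lrp2bp in GENCODE M21.

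**Figure D2:**
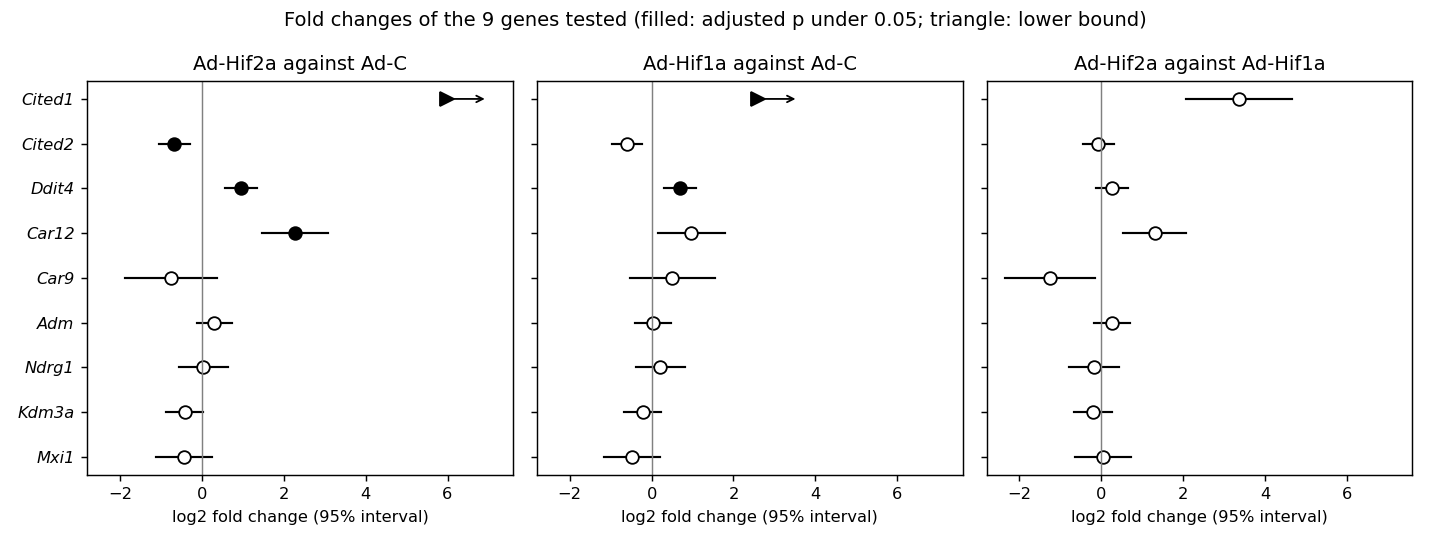
Log2 fold changes of the 9 genes tested (points) with 95% intervals (lines) in Ad-Hif2a against Ad-C, Ad-Hif1a against Ad-C and Ad-Hif2a against Ad-Hif1a. Filled symbols have an adjusted p under 0.05, and triangles with an arrow are lower bounds for Cited1, which had no Ad-C count. Car12 stands at 2.28 in Ad-Hif2a and 0.97 in Ad-Hif1a, and the intervals of Adm and Ndrg1 hold 0 in all 3 comparisons.

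Counted over the 9 genes tested, Ad-Hif2a against Ad-C gave 3 that rose (Cited1, Ddit4 and Car12) and 1 that fell (Cited2). Of these, Cited1 passed the filter on low counts only through the Ad-Hif2a libraries. Among the 14413 genes tested, 15.6% were called in this comparison, 7.87% risen and 7.72% fallen. A total of 3 genes had all Ad-Hif2a libraries above all Ad-C libraries and 2 (Cited2 and Kdm3a) had them all below, where 24.0% and 25.5% of all genes tested did so. Ad-Hif1a against Ad-C gave 2 that rose (Cited1 and Ddit4) and 0 that fell, where 11.3% of all genes were called, 6.04% risen and 5.22% fallen. Of the 9, 4 had an unadjusted p under 0.05 in this comparison, as did 3771 of the 14413 genes tested. DESeq2 called 1 as fallen, Cited2, and 1105 of the 16580 genes it tested. A total of 3 genes had all Ad-Hif1a libraries above Ad-C (Cited1, Ddit4 and Car12) and 3 had them all below (Cited2, Kdm3a and Mxi1), where 24.5% and 25.9% of all genes did so. The median log2 fold change was 0.04 in Ad-Hif2a and 0.22 in Ad-Hif1a, beside 0.01 over all genes tested in each, and it was the same with Cited1 at its lower bound. The group thus held genes far above Ad-C, genes near it and genes below it, and 5 of 9 in Ad-Hif2a and 7 of 9 in Ad-Hif1a were not called. Both comparisons share the Ad-C libraries.

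Set directly against each other, the vectors left no gene of the 9 past the threshold in edgeR, and 0% of all genes tested were called, with 338 of 14413 at an unadjusted p under 0.05. The overexpressed genes were not called either, with log2 fold changes of 1.64 for Epas1 and -1.75 for Hif1a (edgeR adjusted p = 0.823 for Hif1a). The absence of calls thus cannot show that the vectors had equal effects. Of the 9, 3 had an unadjusted p under 0.05. Cited1 was higher in Ad-Hif2a than in Ad-Hif1a by 3.37 on the log2 scale (SE 0.51), with 169 counts over the group in Ad-Hif2a and 17 in Ad-Hif1a and a counting ratio of 10.5 (95% interval 6.37 to 18.5). Car12 was higher by 1.30 (SE 0.33), and Car9 had a log2 fold change of -1.25 (SE 0.47). The edgeR adjusted p was 1.00 for each of these. Cited1 and Car12 had all Ad-Hif2a libraries above all Ad-Hif1a libraries and Car9 had them all below, where 3.07% and 3.21% of all genes did so. DESeq2 called 0.323% of the genes it tested, and Cited1 was among them (adjusted p = 0.000457) and none of the others. Cited1 passed the low-count filter of edgeR only through its Ad-Hif2a libraries, so that being tested there already required a high level in that group. For Ddit4 the difference was 0.26 (95% interval -0.13 to 0.65), for Adm 0.27 (-0.17 to 0.71), for Ndrg1 -0.18 (-0.78 to 0.43), for Kdm3a -0.20 (-0.66 to 0.25) and for Mxi1 0.04 (-0.65 to 0.73). These intervals do not show that the vectors act alike on those genes.

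**Figure D3:**
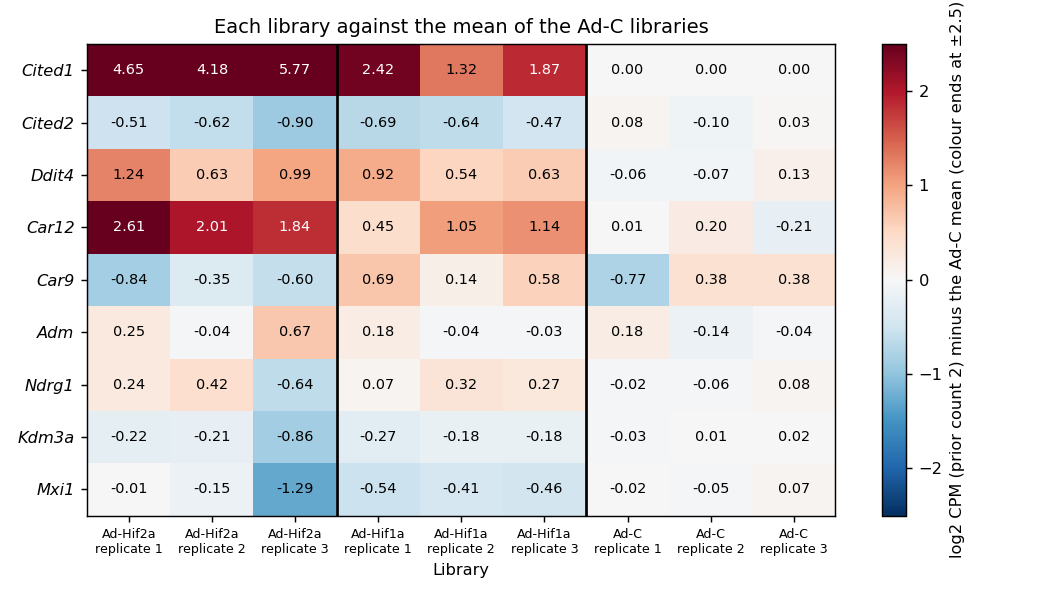
Difference of each library's log2 CPM (prior count 2, which draws values near 0 counts together) from the mean of the Ad-C libraries, for the 9 genes tested. Columns are libraries, from Ad-Hif2a to Ad-Hif1a to Ad-C, red is higher and blue lower. The Ad-Hif2a replicate 3 column departs from its neighbours in Mxi1 (-1.29), Kdm3a (-0.86) and Ndrg1 (-0.64).

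The libraries of one group did not vary alike for every gene. Ad-Hif2a replicate 3 was the lowest of its group in 5 of the 9 genes (Car12, Cited2, Ndrg1, Kdm3a and Mxi1) and the highest in 2 (Cited1 and Adm), with a median deviation of -0.22 from the group mean on the log2 CPM scale. Its Cited1 level was thus the highest of all libraries while its Epas1 level was the lowest of its group. Ad-Hif1a replicate 3 was lowest of its group in 0 of the 9, and its largest deviation was 0.26, in Car12. Among Ad-C libraries the largest deviations were all in Car9, -0.77 in replicate 1 and 0.38 in replicates 2 and 3. Without both Ad-Hif2a replicate 3 and Ad-Hif1a replicate 1, 4 genes were called in each comparison with Ad-C, and they were Car12, Cited1, Cited2 and Ddit4 in both. Calls over all genes were also more frequent in that fit. They made up 28.7% in Ad-Hif2a and 27.6% in Ad-Hif1a, beside 15.6% and 11.3% with all libraries.

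Likeness between profiles was measured as the root mean square difference of log2 CPM, each gene centred on its mean over the 9 libraries, as a description over libraries that share groups. Within the set, Kdm3a and Mxi1 were closest (0.193), followed by Cited2 and Kdm3a (0.197). Among 7750 other genes with an average log2 CPM over 4, the nearest to Car12 were Vegfa (0.350) and Cd55 (0.356), to Ddit4 Cacnb3 (0.0842) and Slc48a1 (0.101), and to Cited2 Msrb3 (0.0730) and Rsu1 (0.0817). The nearest to Cited1 were Rgs16 (1.04) and Mt1 (1.05), still far, beside a median of 2.06 over all candidates. Cited1 and Car12 themselves lay below the cutoff of 4, with highest values of 2.67 and 3.07. Genes of their own low level were thus not among the candidates.

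**Figure D4:**
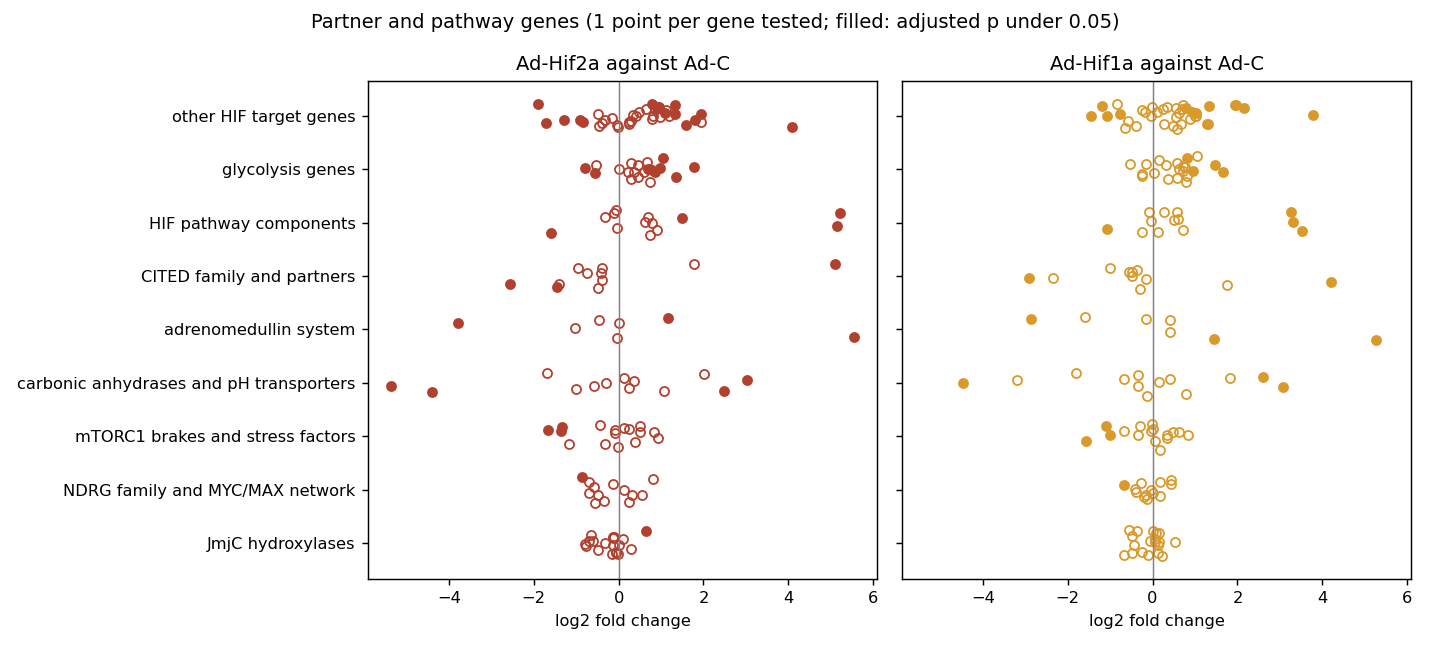
Log2 fold changes of partner and pathway genes in Ad-Hif2a against Ad-C (left) and Ad-Hif1a against Ad-C (right), 1 point per gene tested, filled where the adjusted p was under 0.05. Hif1a and Epas1 (HIF pathway components) include vector transcripts, and Tfap2c, with no Ad-C count, is not drawn. Angptl4 is the rightmost of the other HIF target genes at 4.07 in Ad-Hif2a and 3.77 in Ad-Hif1a.

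Other known HIF targets gave a background for these values. Of 37 tested, 10 rose and 5 fell in Ad-Hif2a, and 9 rose and 4 fell in Ad-Hif1a, with medians of 0.65 in Ad-Hif2a and 0.56 in Ad-Hif1a beside 0.01 over all genes. Over all genes tested, 7.87% rose and 7.72% fell in Ad-Hif2a, and 6.04% rose and 5.22% fell in Ad-Hif1a. These shares stand beside this count and the list counts that follow. Angptl4, a secreted inhibitor of lipoprotein lipase, had 242, 202 and 209 CPM in Ad-Hif2a, 189, 164 and 176 CPM in Ad-Hif1a and 11.4, 14.5 and 12.7 CPM in Ad-C. Its groups were far apart from Ad-C, with log2 fold changes of 4.07 in Ad-Hif2a (SE 0.18) and 3.77 in Ad-Hif1a (SE 0.18). Ndufa4l2, a mitochondrial protein, rose by 2.15 in Ad-Hif1a, and its log2 fold change was 0.80 in Ad-Hif2a (edgeR adjusted p = 0.0840, and 0.0417 without Ad-Hif2a replicate 2). Of 21 glycolysis genes, 7 rose and 2 fell in Ad-Hif2a and 4 rose in Ad-Hif1a. Slc2a1, the glucose transporter, rose by 1.79 in Ad-Hif2a and 1.65 in Ad-Hif1a, Pfkl by 1.36 in Ad-Hif2a and 1.46 in Ad-Hif1a, and Gapdh by 0.69 in Ad-Hif2a and 0.81 in Ad-Hif1a. Among the HIF pathway components, Egln3, the HIF prolyl hydroxylase that is itself a HIF target, averaged 20.9 ± 3.78 CPM in Ad-Hif2a, 5.48 ± 0.721 CPM in Ad-Hif1a and 0.549 ± 0.0528 CPM in Ad-C (SD, n = 3 each). It rose by 5.22 (SE 0.21) in Ad-Hif2a and 3.30 (SE 0.21) in Ad-Hif1a. Arnt2, named after its values were seen as the only component that fell, had log2 fold changes of -1.58 in Ad-Hif2a and -1.08 in Ad-Hif1a.

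Partners of the CITED proteins were also mixed. Of 12 tested, 2 rose and 2 fell in Ad-Hif2a and 2 rose and 1 fell in Ad-Hif1a. Those that rose, Cited4 and Tfap2c, passed the filter on low counts only through HIF-vector libraries, so that being tested already required a difference. Cited4, another member of the family, had 28, 6 and 11 counts in Ad-Hif2a, 15, 7 and 3 counts in Ad-Hif1a and 0, 1 and 0 counts in Ad-C. Its counting ratio to Ad-C was 51.0 (95% interval 8.71 to 2060) in Ad-Hif2a and 26.8 (4.39 to 1101) in Ad-Hif1a. The low-count family members Cited1 and Cited4 had more counts with either vector than in Ad-C, whereas Cited2, with ample counts, was lower. Tfap2c, an AP-2 factor, had 47 counts over the group in Ad-Hif2a, 23 in Ad-Hif1a and 0 in Ad-C, at least 17.8-fold higher in Ad-Hif2a and at least 8.22-fold higher in Ad-Hif1a. Pparg, the adipogenic nuclear receptor, fell in both, with log2 fold changes of -2.55 in Ad-Hif2a and -2.90 in Ad-Hif1a, and Ppara, named after its values were seen, fell in Ad-Hif2a (-1.45).

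In the adrenomedullin system, 2 of 7 rose and 1 fell in each comparison with Ad-C. The decoy receptor Ackr3 rose by 1.17 in Ad-Hif2a and 1.44 in Ad-Hif1a, and the related peptide gene Calcb had 57 counts over the group in Ad-Hif2a, 50 in Ad-Hif1a and 1 in Ad-C. Ramp1, a receptor activity modifying protein, had 3 counts in Ad-Hif2a, 6 in Ad-Hif1a and 50 in Ad-C. Calcb passed the filter only through HIF-vector libraries and Ramp1 only through Ad-C libraries, so that for both being tested already required a difference. Among 13 carbonic anhydrases and pH transporters, 2 rose in each comparison. They were the lactate transporters Slc16a1, with log2 fold changes of 3.03 in Ad-Hif2a and 3.07 in Ad-Hif1a, and Slc16a3, with 2.47 in Ad-Hif2a and 2.60 in Ad-Hif1a. Car10, a catalytically inactive family member, fell in both, with log2 fold changes of -4.41 in Ad-Hif2a and -4.47 in Ad-Hif1a, and Car3, named after its values were seen, fell in Ad-Hif2a (-5.35). Car10 and Car3 passed the filter only with the Ad-C libraries, where they were high.

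In the list of mTORC1 brakes and stress factors, the genes called fell while Ddit4 rose. The list also held the mTORC1 activator Rheb and the mTORC1 subunit Rptor, neither of them called. Of 16 tested, the same 3 fell in each comparison with Ad-C. The log2 fold change was -1.35 in Ad-Hif2a and -1.11 in Ad-Hif1a for Txnip, a thioredoxin-binding stress protein, and -1.67 in Ad-Hif2a and -1.56 in Ad-Hif1a for Sesn1, a member of the sestrin family of mTORC1 inhibitors. Deptor, an mTOR-binding inhibitor, was at 0.398 of the Ad-C level in Ad-Hif2a and 0.499 of it in Ad-Hif1a. Of 13 genes of the NDRG family and MYC network, Ndrg4 alone was called and fell, with log2 fold changes of -0.87 in Ad-Hif2a and -0.68 in Ad-Hif1a. Of 19 JmjC hydroxylases, the relatives of Kdm3a, Jmjd6 alone was called, in Ad-Hif2a (log2 fold change 0.64, edgeR adjusted p = 0.0411, against 0.54 and 0.0870 in Ad-Hif1a). Neither the NDRG and MYC list nor the JmjC list had a larger share called than all genes tested, 15.6% in Ad-Hif2a and 11.3% in Ad-Hif1a. The number of calls in a list moved with single libraries. In Ad-Hif1a, leaving out Ad-Hif2a replicate 3 gave 7 JmjC hydroxylases, 7 mTORC1 brakes and stress factors, 9 CITED partners and 9 carbonic anhydrases and pH transporters. With all libraries 0, 3, 3 and 3 were called. Over all genes tested, 36.4% were called in that fit, beside 11.3% with all libraries. Many single calls were lost without 1 library. In Ad-Hif2a the calls of Jmjd6 (up to 0.208), Gapdh (0.178), Cited4 (0.120), Pfkl (0.115), Ramp1 (0.0641), Ackr3 (0.0600) and Deptor (0.0546) had their highest adjusted p without Ad-C replicate 1, and those of Hif1a (0.0679), Slc16a3 (0.0647) and Ndrg4 (0.0585) without Ad-C replicate 3. In Ad-Hif1a, Cited4 (0.281), Deptor (0.152), Gapdh (0.152), Pfkl (0.125) and Slc16a3 (0.0729) were highest without Ad-C replicate 1, Ndrg4 (0.184), Ramp1 (0.178), Tfap2c (0.0995), Txnip (0.0639) and Sesn1 (0.0608) without Ad-Hif1a replicate 2, and Calcb (0.0585) without Ad-C replicate 3. Angptl4, Slc2a1, Egln3, Pparg, Slc16a1 and Car10 kept their calls against Ad-C in all fits with 1 library left out.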

How the data were processed

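RNA of pre-osteoblasts in 9 libraries was sequenced by the authors with the CORALL RNA-seq V2 kit, and the deposited files hold whole-number counts per gene symbol, not normalized, 1 file per library. The submitters' processing notes name bcl2fastq 2.20.0.422, fastp, STAR, Salmon and build GRCm39, and other settings, strand included, are not given in the sources used here. Groups came from the sample labels. Of 40213 symbols, 14413 passed filterByExpr (minimum count 10) and were tested in edgeR 4.0.16 (R 4.3.3, limma 3.58.1) by the robust quasi-likelihood test on all 9 libraries, with group and replicate number as terms because the study's methods name a paired test (same-numbered libraries did not deviate together), TMM scaling (factors 0.957 to 1.03) and Benjamini-Hochberg adjustment over all genes tested at 0.05. Levels are TMM-scaled CPM. Total counts of 14372589 to 18623403 per library set the precision, and counting intervals (95%, exact) and floors of 3 counts cover counting error only. The 10 genes and the 14 gene lists (9 pathway, 5 marker) were chosen with earlier results of these data known. Named beside the 10 genes were Hif1a, Epas1, up to 3 genes per pathway list with the lowest p among those past the threshold in a comparison with Ad-C, and the 2 genes nearest in profile to each called gene. A gene that the rule names is not reported here. Genes outside that rule are named as such or as list members. Alternatives were the fit without block, DESeq2 1.42.0, other scalings and filters, 6 libraries only, and libraries left out. Scripts were tested on simulated counts. Promoters came from RefSeq (GRCm38.p6) and were used for letters only.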

Additional observations from a re-analysis of the deposited data

How the results depend on the processing

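Same-numbered libraries did not deviate together (Pearson -0.57 to 0.10 over 9 pairs, 0 above 0.1), so neither the labels nor the data show that the numbers pair the libraries. The replicate block is in every edgeR fit printed above unless stated, because the study's methods name a paired test. Without the replicate block, 3 of the 9 genes were called in Ad-Hif1a against Ad-C (Cited2 added), 4 in Ad-Hif2a against Ad-C and 0 in Ad-Hif2a against Ad-Hif1a, while calls over all genes were 2379, 3452 and 2, beside 1624, 2247 and 0 with the block. For Ad-Hif1a against Ad-C, the called genes of the set numbered 1 without a low-count filter, 1 where each library had to hold 10 counts or more, 4 with only the 6 libraries compared and 4 with Ad-Hif2a replicate 3 and Ad-Hif1a replicate 1 left out together, and 0 to 5 with 1 library left out, beside 2. The highest of these, 5, was without Ad-Hif2a replicate 3, and 7 of the 9 left-out libraries gave 0. For Ad-Hif2a against Ad-C the range was 1 to 4 beside 4, with 3 when only the 6 libraries were compared (Cited2 lost). For Ad-Hif2a against Ad-Hif1a, DESeq2 called 1 beside 0. DESeq2 called 2305, 3395 and 80 of all genes. With 1 library left out, calls over all genes ranged from 441 to 5330 in Ad-Hif1a and from 688 to 3309 in Ad-Hif2a, and with only the 6 libraries compared they were 4706 and 1705. With Ad-Hif2a replicate 3 and Ad-Hif1a replicate 1 both left out they were 4022 and 4173. The cause was not tested.

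Signs turned only in values that were not called. Adm in Ad-Hif1a against Ad-C ranged from -0.064 to 0.15 with 1 library left out, and Ndrg1 in Ad-Hif2a against Ad-C from -0.16 to 0.36 and was -0.010 with no composition factors. In Ad-Hif2a against Ad-Hif1a the ranges were -0.22 to 0.41 for Mxi1, -0.18 to 0.076 for Cited2, -0.39 to 0.14 for Ndrg1 and -0.33 to 0.010 for Kdm3a, with Mxi1 at -0.0019 with only the 6 libraries compared and Ndrg1 at 0.089 with both of those libraries left out. Calls of other HIF targets with 1 library left out numbered 5 to 20 in Ad-Hif2a and 3 to 28 in Ad-Hif1a, beside 15 and 13, and of glycolysis genes 1 to 11 and 1 to 15, beside 9 and 4. The ranges for the other lists follow, for Ad-Hif2a and Ad-Hif1a in turn, with the calls from all libraries in brackets. They were 3 to 4 and 3 to 8 for HIF pathway components (4 and 4). CITED partners had 2 to 4 and 1 to 9 (4 and 3), and the adrenomedullin system 1 to 3 and 1 to 5 (3 and 3). Carbonic anhydrases and pH transporters had 2 to 6 and 2 to 9 (4 and 3). The list of mTORC1 brakes and stress factors had 2 to 5 and 0 to 7 (3 and 3). The NDRG and MYC list had 0 to 2 and 0 to 1 (1 and 1), and JmjC hydroxylases 0 to 2 and 0 to 7 (1 and 0). Over all genes, calls with 1 library left out made up 4.67% to 22.6% in Ad-Hif2a and 2.99% to 36.4% in Ad-Hif1a. With only the 6 libraries compared, 5 JmjC hydroxylases were called in Ad-Hif1a, beside 33.5% of all genes tested. With ACGTG alone, 7 of 15 promoters of the set held a match, beside 10 with either core. Over all 32851 promoters, the shares were 19.6% with ACGTG alone and 43.8% with either core.

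Car9 and Ankrd37 had at most 25 and 23 counts in any library. Counting intervals of the ratio of Ad-Hif1a to Ad-C held 1 for both (0.918 to 2.02 for Car9 and 0.477 to 8.75 for Ankrd37), so that no difference was detectable at this depth. Those of Ad-Hif2a to Ad-C did not hold 1 (0.343 to 0.955 and 3.55 to 38.4), and neither gene was called there in edgeR (adjusted p = 0.287, and 0.168 with no filter). Library totals in place of TMM scaling moved no mean level of the 10 genes by over 1 SD.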
